A study of Mus musculus with 4 samples.

Results

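The data described here were the 2 Bach1-cKO libraries of a time course of injured muscle, compared with each other as dpi4 over dpi2 (4 against 2 days post-injury), with the control pair set beside them. Each library held CD45-enriched cells from the tibialis anterior of male mice aged 8 to 12 weeks, injured with cardiotoxin, and sequenced as single cells from the 3′ ends of their transcripts, in droplets. Bach1-cKO mice were *Bach1* fl/fl and carried Cre at the *Lyz2* locus, a gene of the myeloid lineage, so that lymphocytes, endothelial and stromal cells kept the gene, and control mice were *Bach1* fl/fl littermates. Both groups therefore carried the floxed *Bach1* exon that encodes the DNA-binding domain. Each of the 4 groups was 1 library. The study says that this experiment used individual mice, but does not state how many went into a library. No spread between animals was measured.

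Barcodes with at least 500 detected genes and under 10% mitochondrial UMIs (distinct RNA molecules) were kept. These were 3799 of 4177 barcodes at dpi2 and 3533 of 4514 at dpi4, together 7332 of the 17665 cells that the same filter kept in the whole series of 20500 barcodes. They held 56181953 and 58451689 UMIs, with medians of 11934 and 13894 UMIs per cell, and the control libraries held 77978276 (dpi2) and 76417632 (dpi4). Any pair of the 4 libraries shared at most 12 barcodes, and the Bach1-cKO pair shared 4. UMIs were summed over the kept cells of a library and are given as CPM, a share of all UMIs of that library scaled to counts per 1e6.

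BACH1 is a repressor of transcription that is released from DNA when it binds heme, and its targets include genes of heme breakdown, iron storage and antioxidant defence. After sterile muscle injury, neutrophils and Ly6C-high monocytes enter first, and the monocytes then become macrophages that clear dead fibres, present antigen and release growth factors for muscle stem cells. The comparison of dpi4 with dpi2 follows that succession in mice with the deletion in myeloid cells.

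The gene that was targeted could not be checked by its level. *Bach1* (ENSMUSG00000025612, chr16:87698945-87733346, + strand, GRCm38) had 187 CPM at dpi2 and 218 CPM at dpi4 in the Bach1-cKO libraries, and 189 and 210.2 CPM in the control libraries. Reads of a 3′ library come from the end of the transcript, outside the deleted exon, so that these counts do not test the deletion. *Lyz2*, the locus that carries the Cre, had 17.6 and 21.7 CPM in the Bach1-cKO libraries against 9447 and 16175 CPM in the controls, so that the libraries differed at the locus as their labels state. Its near-identical neighbour *Lyz1* had 505 and 493 CPM against 17.5 and 51.8 CPM, and since reads can be split between the pair, both levels are uncertain. *Hmox1*, which encodes heme oxygenase-1 and is a known BACH1 target, had 8215 and 6332 CPM in the Bach1-cKO libraries against 505 and 424 CPM in the controls. *Ptprc*, which encodes CD45, was present at both times (526 and 610.0 CPM).

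The infiltrate of Bach1-cKO muscle went from a mixture of monocytes, macrophages and neutrophils at dpi2 to one made mainly of macrophages at dpi4. A gene was called higher or lower where its CPM differed by at least 2-fold, at least 50 UMIs were counted in the pair and the 95% interval of the ratio did not hold 1. Such a call describes 2 libraries and is not a test of the time points, and all intervals cover counting error only. Of 12779 genes measured, 2071 were higher at dpi4 (16.2%) and 626 were lower (4.90%), and the median log2 ratio was 0.11. The control pair gave 2231 higher (16.8%) and 603 lower (4.53%) of 13309 genes, with a median of 0.08.

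Most genes called in each pair were called the same way in the other, more so for higher than for lower genes. Among 12702 genes measured in both, the 1502 genes that were higher in both were 73.2% of the Bach1-cKO list and 79.8% of the control list. The 330 genes lower in both were 55.2% and 57.4% of the respective lists. In all, 3 genes higher and 6 genes lower in the Bach1-cKO pair were called the opposite way in the control pair. The Bach1-cKO course lay at least 2-fold above the control course for 519 genes (4.09%) and at least 2-fold below it for 446 genes (3.51%).

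**Figure D1:**
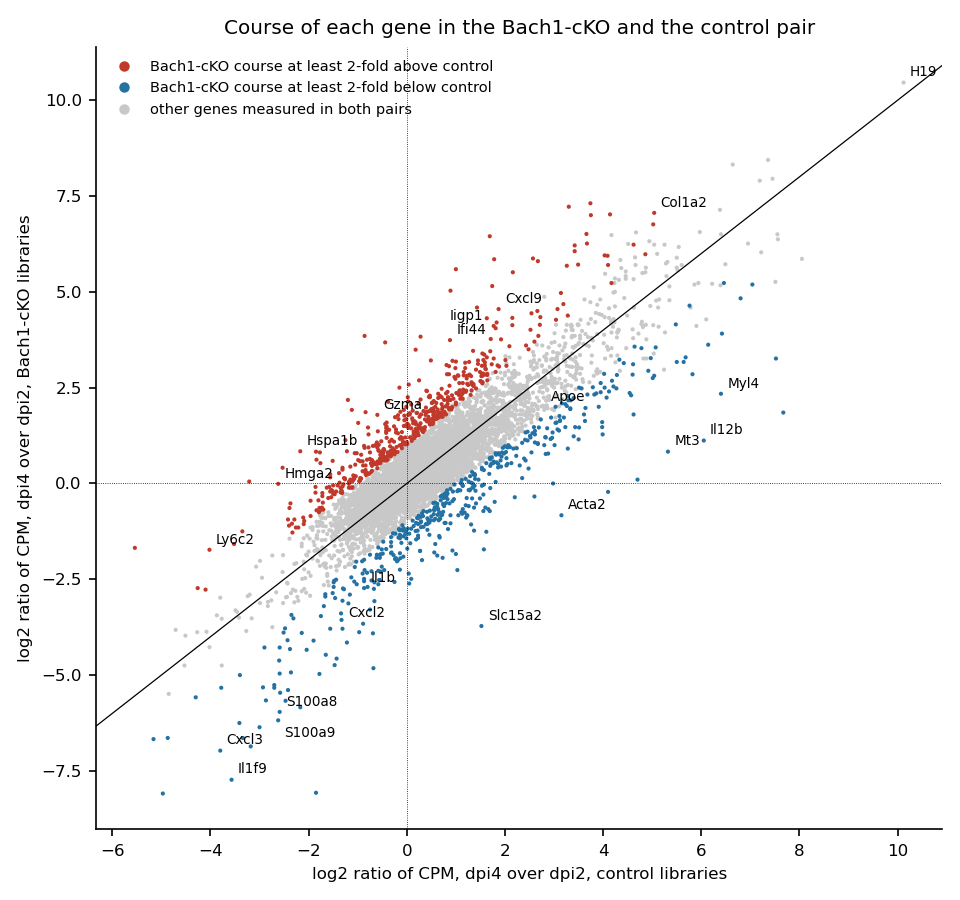
Log2 ratio of CPM, dpi4 over dpi2, in the control pair (horizontal axis) and the Bach1-cKO pair (vertical axis) for genes with UMIs at both times. Each point is a gene, the line marks equal courses, and coloured genes lie at least 2-fold above (red, 519 genes) or below (blue, 446 genes) it. *S100a8*, *S100a9*, *Il1f9* and *Slc15a2* lie far below the line, and *Iigp1*, *Ifi44* and *Cxcl9* above it.

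Cell classes were rebuilt by clustering the 7332 cells without the genes of the lists below, and clusters were called X-like from marker genes. Macrophage-like cells, marked by genes such as *Apoe*, *C1qa* and *Mertk*, made up 1078 cells at dpi2, or 28.4% (exact binomial 95% interval 26.9 to 29.8%), and 2729 cells at dpi4, or 77.2% (75.8 to 78.6%). Monocyte-like cells (*Ly6c2*, *Vcan*, *Plac8*) went from 1049 cells (27.6%) to 60 (1.70%). Neutrophil-like cells (*S100a8*, *S100a9*, *Cxcr2*) went from 763 cells (20.1%) to 34 (0.962%). The infiltrate at dpi4 thus held few cells of either early class. Dendritic cell-like cells were 236 (6.21%) and 378 (10.7%), and T or NK cell-like cells were 44 (1.16%) and 147 (4.16%). B cell-like cells were 12 and 17, and endothelial cell-like cells, which a CD45 selection should remove, were 16 and 43. With a coarser clustering (Leiden resolution 0.5) no cluster was endothelial cell-like and 11 and 81 cells were fibroblast or fibro-adipogenic progenitor-like, and with a finer one (resolution 2) 13 neutrophil-like cells (0.368%) were left at dpi4.

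Shares of cells and shares of RNA differed, because macrophage-like cells were deep and neutrophil-like cells shallow. At dpi2 macrophage-like cells had a median of 26864 UMIs and gave 54.7% of all UMIs, and neutrophil-like cells had a median of 3410.0 UMIs and gave 4.82%. At dpi4 macrophage-like cells had a median of 15633 UMIs and gave 84.7% of the UMIs. In summed counts, fewer cells of a type and less RNA per cell cannot be told apart. For each gene, the change that the shares of the classes give by themselves was therefore also computed, with the level in each class held at its dpi2 value. The macrophage-, monocyte-, neutrophil-, dendritic cell- and T or NK cell-like classes were used, and all other cells, unnamed clusters included, were pooled in a remainder. A change of clusters within that remainder is not counted as a change of shares.

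Unnamed clusters held 601 cells at dpi2 (15.8%) and 125 at dpi4 (3.54%). The largest, led by *Pdcd1lg2*, *Prok2* and *Il1f9*, had 547 shallow cells at dpi2 and 14 at dpi4. Of the 7 neutrophil markers 6 were detected in it, but none was among its leading genes. Counted as neutrophil-like, a choice made after seeing the data, it would raise that share to 34.5% at dpi2 (33.0 to 36.0%) and 1.36% at dpi4. Another, led by *Gm26917*, *Lars2* and *Gm42418*, had 54 and 72 cells. The third, of 39 cells, all at dpi4, was led by the collagen genes *Col1a2*, *Col1a1* and *Col3a1* and held 2.54% of the UMIs of that library. It also held 64.8% of the UMIs of *Myod1*, a regulator of myoblasts, and 79.3% of those of *Ttn*, which encodes the muscle protein titin, and all 5 myoblast markers were detected in it.

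**Figure D2:**
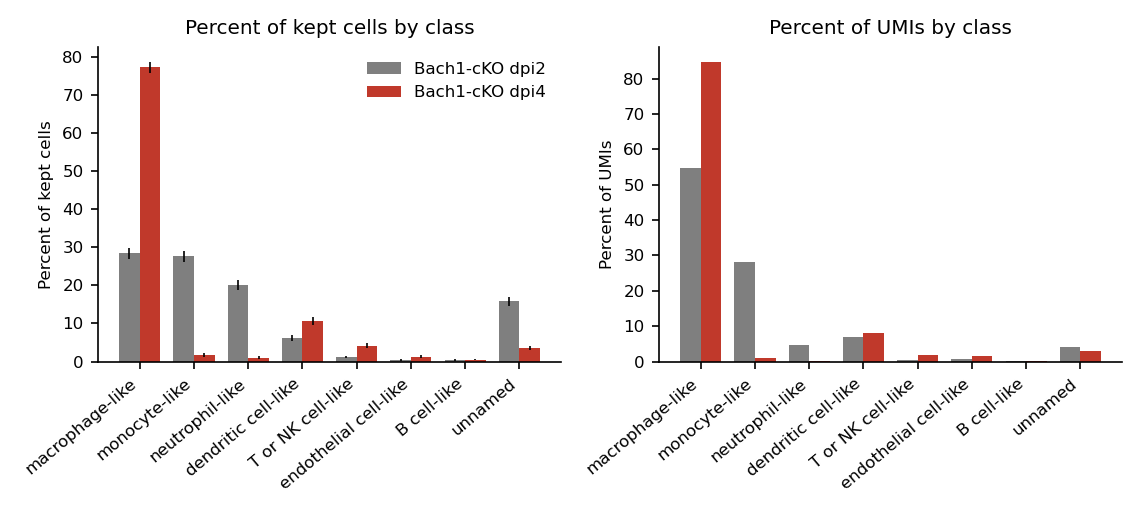
Cell classes of the Bach1-cKO libraries at dpi2 and dpi4, as shares of kept cells and of UMIs in percent, 1 library per time, with exact binomial 95% intervals on the shares of cells. The macrophage-like share of cells was 28.4% at dpi2 and 77.2% at dpi4, and the neutrophil-like share 20.1% and 0.962%.

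The macrophage-like class was not the same mixture at the 2 times. At dpi2, 53.4% of it was a cluster with *Pdpn* and *Jag1* among its leading genes, and 31.4% a cluster led by *Ppbp*, *Cd163* and *Gja1*. At dpi4 these held 1.58% and 0.733%. The dpi4 cells fell into a cluster led by *Vcam1*, *Sepp1* and *Slc40a1* (35.2%), one led by *Apoe*, *C1qb* and *C1qa* (18.3%), and a pair led by *Mmp12* with *Cd72* and *H2-Aa* (18.0%) or with *Gpnmb* and *Spp1* (14.4%). Smaller clusters were led by *Iigp1*, *Ifit2* and *Cmpk2* (7.15%) and by the mitotic genes *Top2a*, *Birc5* and *Ube2c* (4.58%). Values within macrophage-like cells below compare these different clusters. Of 11510 genes measured in the class, 1062 were higher at dpi4 (9.23%) and 558 lower (4.85%), with a median log2 ratio of -0.04. In dendritic cell-like cells 4.90% of 8554 genes were higher and 2.49% lower, and in monocyte-like cells 4.91% of 8899 genes were higher and 3.07% lower. The mixture of the monocyte-like class changed too. A cluster led by *Vcan*, *Chil3* and *Dmkn* had 687 cells at dpi2 and 53 at dpi4, and one led by *Ccl2*, *Ccl7* and *F10* had 362 and 7.

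The 12 steepest falls included *S100a8*, *S100a9*, *Il1f9*, *Cxcl3* and *Cxcr2*. *S100a8* and *S100a9*, the subunits of calprotectin and among the most abundant neutrophil transcripts, went from 2502 to 40.1 CPM (62.4-fold lower, 59.9 to 65.0) and from 2029 to 28.0 CPM (72.5-fold lower, 69.1 to 76.2). *Il1f9*, a cytokine of the interleukin-1 family, went from 47.1 to 0.222 CPM (212-fold lower, 124 to 398), and 64.5% of its dpi2 UMIs lay in the largest unnamed cluster. Its log2 ratio of -7.73 was -6.36 without the unnamed clusters, -6.89 with the mean of per-cell CPM and -8.83 in cells with at least 1000 genes. *Cxcl3*, a ligand of the neutrophil receptor CXCR2, went from 142 to 1.13 CPM (125-fold lower, 98.5 to 162). *Cxcr2* itself was 51.1-fold lower, *Lcn2* (lipocalin-2) 99.8-fold lower, and *Irg1*, the enzyme that makes itaconate, 50.6-fold lower. The log2 ratio of *Lcn2*, -6.64, was -8.93 in cells with at least 1000 genes and -5.58 with the mean of per-cell CPM. *Wfdc21*, *Stfa2l1*, *Dmkn*, *Ppbp* and *Slpi* were the other genes among the 12 with the steepest falls, with log2 ratios from -6.86 (*Wfdc21*) to -5.33 (*Slpi*). At dpi2, monocyte-like cells held 81.0% of the *Dmkn* UMIs and macrophage-like cells 85.4% of those of *Ppbp*.

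All 12 of these genes also fell by at least 2-fold in the control pair, from lower starting levels. *S100a8* there went from 644 to 107 CPM and *S100a9* from 539 to 87.9 CPM, so that the log2 course in Bach1-cKO lay below that in controls by -3.37 (-3.44 to -3.30) and -3.56 (-3.64 to -3.48). Within neutrophil-like cells *S100a8* had 37905 CPM at dpi2 and 15910.1 CPM in the 34 cells at dpi4. For *S100a8* the shares of the classes alone gave a log2 ratio of -2.00 against -5.96 as measured, and 15.7% of its dpi2 UMIs lay in the unnamed *Il1f9* cluster. That cluster gave 3.71% of all UMIs at dpi2 and 0.0683% at dpi4, and the -2.00 does not count this fall, which lies within the pooled remainder.

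The 12 highest ratios included collagen and other matrix genes, and for most of the 12 the larger part of the UMIs lay in the 39 collagen cells. *Col1a2* and *Col1a1*, the chains of type I collagen, went from 1.23 to 163 CPM (133-fold, 105 to 171) and from 2.39 to 151 CPM (63.2-fold, 53.3 to 75.5). *Col3a1* went from 1.62 to 121 CPM (75.0-fold, 61.0 to 93.3) and *Mgp*, a matrix inhibitor of calcification, from 0.196 to 48.3 CPM (247-fold, 138 to 495). *H19*, an imprinted noncoding RNA, had 1 UMI at dpi2 and 1468 at dpi4 (1411-fold, 253 to 55769). *C1qtnf3*, *Cilp* and *Capn6* had no UMI at dpi2 and 615, 527 and 504 at dpi4, and against a limit of 3 UMIs in the dpi2 library they were at least 197-fold, 169-fold and 161-fold higher. *Peg3*, *Col8a1* and *Dcn* had log2 ratios of 7.90, 7.02 and 5.95.

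The collagen cluster held 94.1% of the *Col1a2*, 95.4% of the *Col1a1*, 92.3% of the *Col3a1*, 85.5% of the *Mgp*, 88.8% of the *Peg3* and 49.0% of the *H19* UMIs of the dpi4 library. With all unnamed clusters left out, the log2 ratios were 2.94 for *Col1a2*, 1.80 for *Col1a1*, 2.50 for *Col3a1*, 5.14 for *Mgp*, 4.72 for *Peg3*, 1.93 for *Col8a1* and 3.34 for *Dcn*. *H19* was at 9.46 and *Retnla* at 7.01 in that setting, and the count of higher genes was 1638. The 5 fibroblast markers were all higher and summed to 4.29 and 289 CPM in Bach1-cKO, and to 25.8 and 649 CPM in controls. Myoblast markers summed to 0 CPM, with all 5 at 0, and to 12.7 CPM, and muscle fibre markers to 8.31 and 51.1 CPM. Red blood cell markers were at 0.249 and 1.57 CPM, and mast cell or basophil markers at 0.908 CPM and at 0, with all 6 at 0.

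Besides *H19*, *Retnla* was the gene among the 12 highest ratios that did not lie mainly in the unnamed clusters. It encodes a secreted protein of alternatively activated macrophages. It had 0.107 CPM at dpi2 and 11.6 CPM at dpi4 (109-fold, 49.6 to 297), a log2 ratio of 6.76 that was 9.15 with a mitochondrial limit of 5% and 5.47 with the mean of per-cell CPM, and 99.3% of its dpi4 UMIs lay in macrophage-like cells. In the control pair it had 1.55 and 50.5 CPM.

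**Figure D3:**
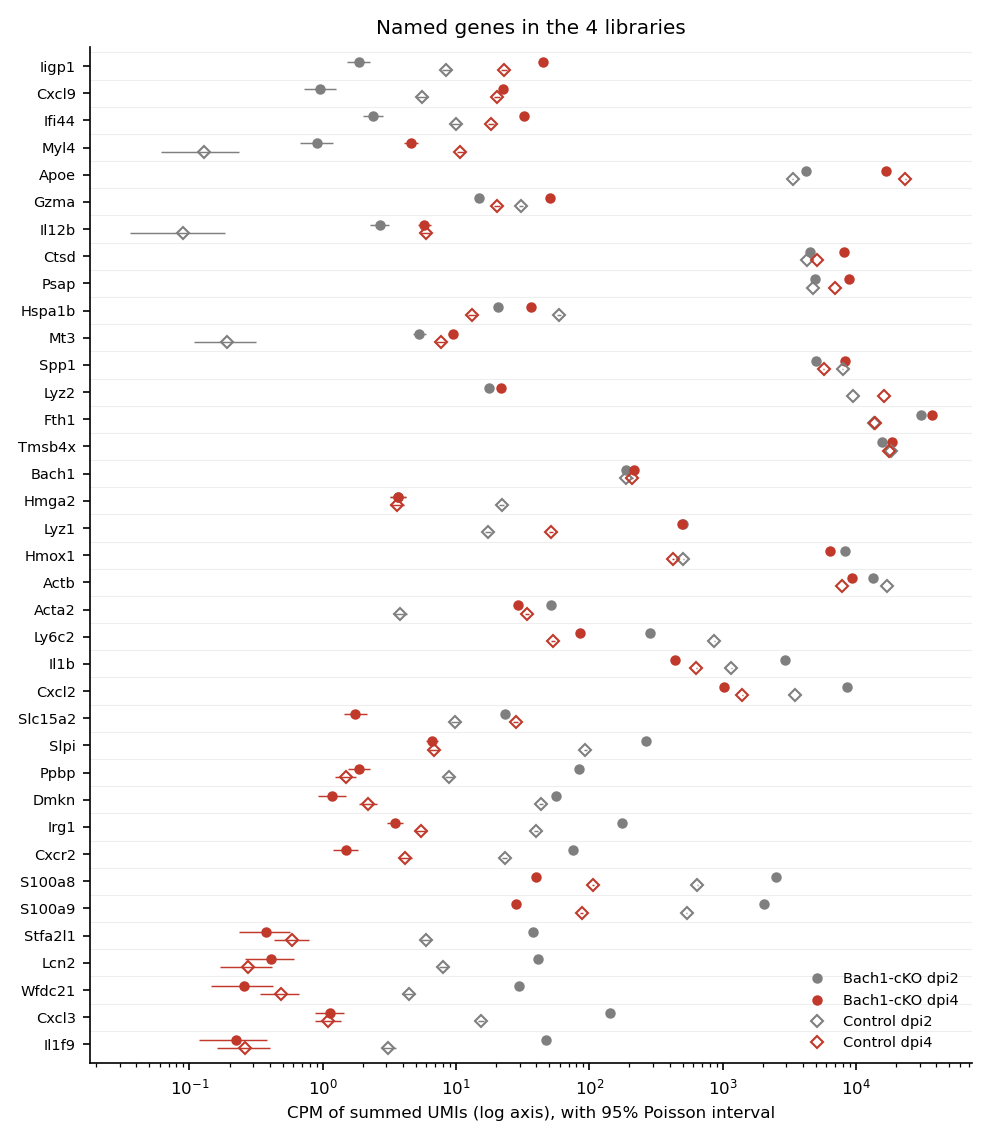
CPM (log axis) of genes named by rank and for the label checks in the Bach1-cKO (filled circles) and control (open diamonds) libraries at dpi2 (grey) and dpi4 (red), with 95% Poisson intervals for counting error only. *S100a9* went from 2029 to 28.0 CPM in Bach1-cKO and from 539 to 87.9 CPM in control, and *Slc15a2* from 23.2 to 1.76 CPM and from 9.77 to 28.1 CPM.

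In CPM, the largest increase was that of *Apoe*, the lipid carrier of macrophages, from 4247 to 16874 CPM (3.97-fold, 3.96 to 3.99), and it was larger in controls (3349 to 23504 CPM). *Psap* and *Ctsd*, lysosomal proteins, had 4908 and 8838 CPM and 4545 and 8185 CPM, under the 2-fold rule. *Spp1*, which encodes osteopontin, had 4983 and 8208 CPM in Bach1-cKO and 7934 and 5708 CPM in controls, a difference of courses of log2 1.20 (1.19 to 1.20). The second largest was that of *Fth1*, the ferritin heavy chain and a known BACH1 target, at 30596 and 37065 CPM. Its log2 ratio of 0.28 became -0.35 where the per-cell CPM was averaged. *Tmsb4x*, which binds actin monomers, had 15576 and 18493 CPM. The largest decrease in CPM was that of *Cxcl2*, a ligand of CXCR2, from 8557 to 1027 CPM (8.33-fold lower, 8.26 to 8.40), and next came *Actb* (13418 and 9317 CPM, not past the rule), *Il1b*, *S100a8*, *S100a9* and *Hmox1*.

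The pro-inflammatory cytokines and mediators fell as a group. Of 20 measured genes 18 were lower and none was higher, with a median log2 ratio of -2.52, against 0.11 over all genes. Beside this and every later list stand the shares over all genes measured. These were 16.2% higher and 4.90% lower in the Bach1-cKO pair, and 16.8% and 4.53% in the control pair. *Il1b*, the interleukin-1β gene, went from 2933 to 442 CPM (6.63-fold lower, 6.54 to 6.72), *Ptgs2*, the inducible cyclooxygenase, from 929 to 106 CPM (8.76-fold lower), and *Tnf* from 483 to 118 CPM (4.11-fold lower). *Clec4e*, a receptor that senses dead cells, went from 649.6 to 43.6 CPM and *Trem1*, an amplifier of myeloid activation, from 75.9 to 3.10 CPM. The chemokines *Ccl3* and *Ccl4* went from 1875 to 326 CPM and from 2122 to 625 CPM. For *Ccl3*, 44.7% of the dpi2 UMIs lay in the unnamed *Il1f9* cluster. *Tlr2* (log2 -0.72) and the nearly absent *Nos2* (0.676 and 0.736 CPM) were the members not past the rule.

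The fall was steeper than in control muscle, where 8 of the 20 were lower and the median was -0.88. The neutrophil markers moved with it: 6 of 7 had courses at least 2-fold below control (median difference log2 -2.82), from 4948 to 134 CPM in sum against 1333 to 266 CPM. Their part in the steeper course was not tested. All 20 differences of courses were negative and 15 were at least 2-fold. *Il1b* had 1164 and 635 CPM in controls, a difference of log2 -1.86 (-1.88 to -1.83), and *Il1a* had 41.8 and 18.4 CPM in Bach1-cKO against 9.48 and 16.9 CPM in controls. The Bach1-cKO pair started higher and ended near or below the control pair, as the summed list shows, with 20494 and 3412 CPM against 8869 and 4489 CPM.

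The shares of the classes and the values summed within classes both differed between the times for this list. The shares of the classes alone gave a median of -0.72. This value does not count the loss of the unnamed *Il1f9* cluster, which lies in the pooled remainder. At dpi2 that cluster held 44.7% of the *Ccl3*, 19.6% of the *Cxcl2* and 4.44% of the *Il1b* UMIs. Within macrophage-like cells 12 of 19 measured members were lower, none was higher and the median was -1.14, with *Cxcl2* going from 3856 to 1095 CPM, *Il1b* from 567 to 258 CPM and *Ccl4* from 614 to 618 CPM. Within monocyte-like cells 8 of 19 and within dendritic cell-like cells 7 of 18 were lower. Neutrophil-like cells had 105744 CPM of the list at dpi2 and 59774 CPM at dpi4, with 8 of 17 lower, none higher and a median of -0.93. Of all 4545 genes measured in that class 4.16% were lower and 13.6% higher, with a median of 0.30. T or NK cell-like cells, which should lack most of these transcripts, had 8505 CPM of the list at dpi2 and 1078 CPM at dpi4, against 7938 and 3334 CPM in macrophage-like cells. They had 1093 CPM of *S100a8* and 3766 CPM of *Cxcl2* at dpi2 and 3.83 and 134 CPM at dpi4. The part of RNA from outside the cells in the levels within classes was not tested.

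Chemokines of the CC family, which draw monocytes, mostly fell in both pairs. Of 10 measured, 6 were lower and 2 higher in Bach1-cKO (median log2 -1.62) and 5 of 9 were lower and 1 higher in controls (-2.00). With the mean of per-cell CPM the Bach1-cKO median was -0.85. *Ccl2*, the main ligand of the monocyte receptor CCR2, went from 1642 to 142 CPM (11.6-fold lower, 11.3 to 11.8) and *Ccl7* from 1029 to 70.6 CPM (14.6-fold lower, 14.1 to 15.1). In controls they were 13.6-fold and 16.9-fold lower. Within macrophage-like cells the log2 ratios were -3.34 (-3.38 to -3.31) and -3.91 (-3.96 to -3.86), while the class shares alone gave -0.27 and -0.03. *Ccl5* and *Ccl22*, ligands of T cell and dendritic cell traffic, were higher (49.7 to 141 CPM and 2.42 to 10.6 CPM), and dendritic cell-like cells held 51.1% and 79.8% of their UMIs at dpi4. *Ccl24*, an eosinophil attractant, was lower in Bach1-cKO (32.2 to 15.4 CPM) and not past the rule in controls (11.3 to 15.2 CPM).

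Among receptors of trafficking, 9 of 16 were lower and 2 higher (median log2 -1.06; -0.97 in controls), and with the mean of per-cell CPM the median was -0.57. *Ccr2*, the receptor of *Ccl2*, went from 566 to 232 CPM and *Ccr1* from 324 to 47.3 CPM. *Cx3cr1*, the fractalkine receptor of non-classical monocytes and resident-like macrophages, went the other way, from 77.1 to 288 CPM (3.73-fold, 3.61 to 3.86). *Itgax*, which encodes CD11c, went from 31.6 to 99.6 CPM (3.15-fold, 2.99 to 3.32). Their log2 ratios within macrophage-like cells were 1.95 and 2.23.

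The interferon-stimulated genes were, of the 18 pathway lists, the one with the largest share of members whose course differed by 2-fold from control muscle (19 of 20). Type I interferon acts through a complex of transcription factors that binds the interferon-stimulated response element, whose core GAAANNGAA was searched on both strands in 300-base promoters (250 bases before to 50 after the RefSeq start; GRCm38.p6). Of 20 list members 15 matched a promoter, and 9 of these held the core. Counted per promoter, since some genes have several, 9 of the 18 promoters of the list held it, and 8.56% of all 32851 promoters (2812). Windows of 41 bases around the core are shown for 6 members whose core lay wholly before the start and whose values are given next, 5′ to 3′ along the gene's strand, with every match to the core or its reverse complement in capitals (in *Isg15* several overlap).
Isg15: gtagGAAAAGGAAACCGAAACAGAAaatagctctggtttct
Ifit1: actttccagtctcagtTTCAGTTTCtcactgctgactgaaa
Ifit3: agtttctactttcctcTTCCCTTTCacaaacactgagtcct
Rsad2: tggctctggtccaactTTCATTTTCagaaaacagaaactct
Stat2: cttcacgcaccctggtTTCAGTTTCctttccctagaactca
Cxcl10: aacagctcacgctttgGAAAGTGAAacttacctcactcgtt
They lie at chr4:156200860-156200900 (*Isg15*, - strand), chr19:34640789-34640829 (*Ifit1*, +), chr19:34583411-34583451 (*Ifit3*, +), chr12:26456547-26456587 (*Rsad2*, -), chr10:128270261-128270301 (*Stat2*, +) and chr5:92349078-92349118 (*Cxcl10*, -). A match describes letters in a window and is no evidence of binding. TGAGTCA, the core that AP-1 sites share with the MAF recognition element bound by BACH1, was found in 3 of the 15 matched members (*Cxcl10*, *Rsad2* and *Xaf1*), or 16.7% of the 18 promoters, and in 5.20% of all promoters. In the heme, iron and antioxidant list, of which 15 of 20 genes matched, it was found in *Me1*, *Prdx1* and *Srxn1* (14.3% of 21 promoters).

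In the Bach1-cKO pair the interferon list had similar sums at both times. Of 20 members 2 were higher, 1 was lower and the median log2 ratio was 0.04, which became -0.10 with library sizes scaled by TMM or by median-of-ratios size factors. In control muscle 14 of the 20 were lower and none was higher, with a median of -1.18. All 20 differences of courses were positive and 19 were at least 2-fold. The starting levels differed: the list summed to 1482 CPM in Bach1-cKO and 4114 CPM in controls at dpi2, and to 1643 and 1732 CPM at dpi4. The monocyte markers summed to 2881 CPM in Bach1-cKO and 4649 CPM in controls at dpi2, and to 584 and 559 CPM at dpi4. The median difference of their courses was log2 0.16, and their part in the interferon difference was not tested.

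*Isg15*, a ubiquitin-like modifier, had 208 and 113 CPM in Bach1-cKO and 557 and 129 CPM in controls. *Rsad2*, the antiviral enzyme viperin, had 164 and 158 CPM against 475 and 168 CPM. *Cxcl10*, a ligand of CXCR3 on T cells, had 138 and 140.4 CPM against 423 and 164 CPM. In each of these genes the control library at dpi2 stood above the other 3 libraries. *Ifit1*, which binds viral RNA caps, had 59.6 and 64.5 CPM against 183 and 76.7 CPM, and *Ifit3* 47.3 and 81.8 CPM against 222 and 109.5 CPM. *Stat2*, a subunit of that complex, had 28.6 and 44.5 CPM against 80.1 and 47.6 CPM, and *Irf7*, which amplifies the response, 109 and 188 CPM against 332 and 159 CPM. The members that rose were *Ifit2*, from 33.2 to 97.1 CPM (2.93-fold, 2.78 to 3.09), and *Ifi44*, from 2.40 to 32.2 CPM (13.4-fold, 11.2 to 16.1), and *Isg20* was lower (29.4 to 14.1 CPM).

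Within macrophage-like and monocyte-like cells the median of the interferon list was above 0, opposite to what the shares of the classes gave alone (median -0.69). In macrophage-like cells 9 of 20 were higher, none was lower and the median was 0.90, and the list summed to 806 and 1622 CPM. *Cxcl10* went from 41.0 to 132 CPM there, a log2 ratio of 1.69 (1.60 to 1.77), and *Irf7* from 59.0 to 193 CPM (1.71; 1.64 to 1.79). In monocyte-like cells, of which 60 were left at dpi4, 14 of 19 were higher and the list summed to 2738 and 8069 CPM. In dendritic cell-like cells none of 20 was past the rule in either direction (median -0.09; 1514 and 1495 CPM). In neutrophil-like cells 5 of 17 were lower, none was higher and the median was -0.74 (2657 and 1571 CPM), against 0.30 over all genes of that class. At dpi2, monocyte-like cells were the class with the most UMIs for 17 of the 20 members, with shares from 42.5% (*Rtp4*) to 71.6% (*Cxcl10*).

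**Figure D4:**
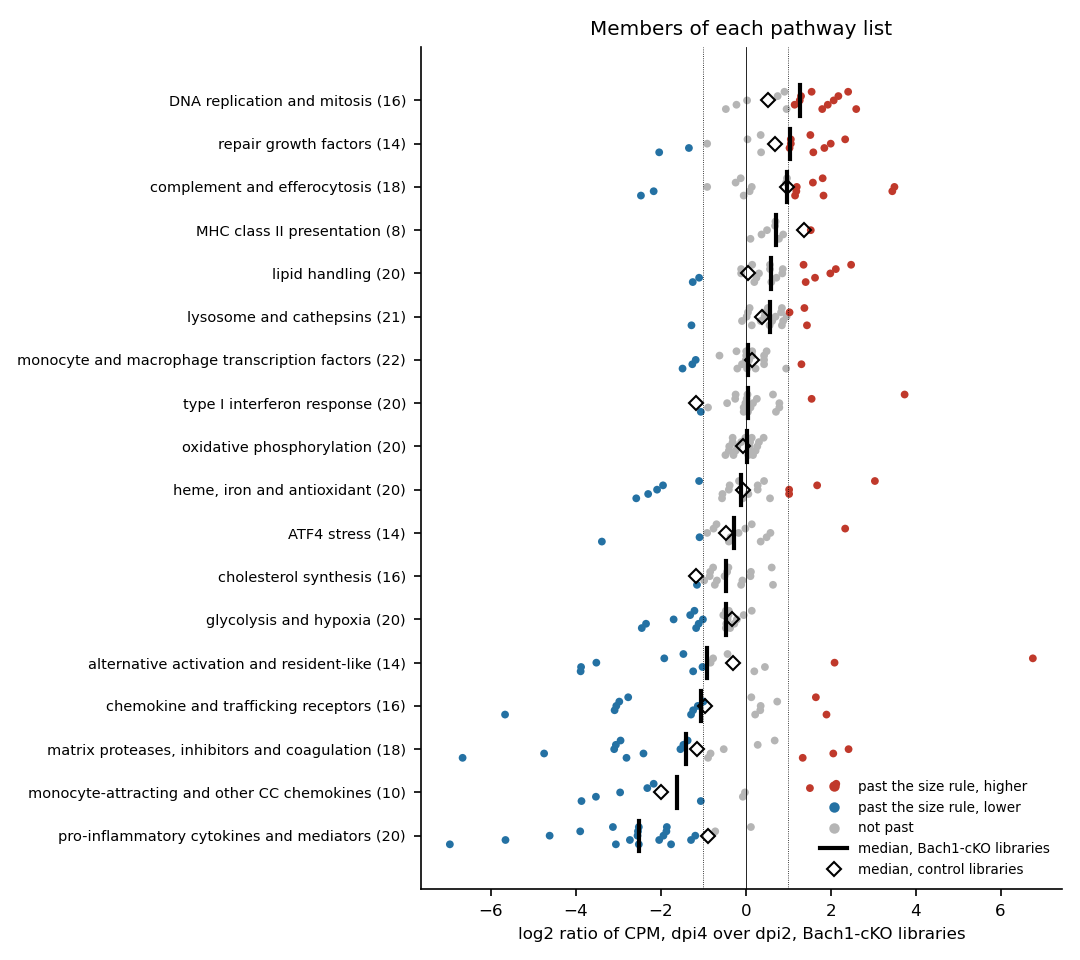
Log2 ratio of CPM, dpi4 over dpi2, of each measured member of the gene lists in the Bach1-cKO libraries (points), with the medians of the Bach1-cKO and the control pair. The medians of the pro-inflammatory list were -2.52 and -0.88, and those of the interferon list 0.04 and -1.18.

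Of the MHC class II genes, which present antigen to CD4 T cells, fewer passed the rule than in controls. In Bach1-cKO 1 of 8 was higher and none lower, with a median log2 ratio of 0.70, and in controls 6 of 8 were higher, with a median of 1.36. The Bach1-cKO median was 1.29 with the mean of per-cell CPM and 1.10 with a mitochondrial limit of 5%. All 8 differences of courses were negative, none of them 2-fold. *H2-Aa* had 945 and 1625 CPM (1.72-fold, 1.70 to 1.74) against 603 and 1790.1 CPM in controls, and *Cd74*, the invariant chain, 1631 and 2304 CPM against 1116 and 2825 CPM. *Ciita*, the regulator that switches the class on, was the member past the rule, from 6.46 to 18.7 CPM (2.89-fold, 2.56 to 3.26). Within macrophage-like cells 7 of 8 were higher (median 1.19), with *H2-Aa* going from 420.2 to 998 CPM. Dendritic cell-like cells had 36579 and 38332 CPM of the list, with none of 8 past the rule, and held 59.7% of the *H2-Aa* UMIs at dpi2.

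Most genes of the DNA replication and mitosis list rose. Of 16 measured, 10 were higher and none lower, with a median of 1.28, and in controls 2 were higher, with a median of 0.52. All 16 differences of courses were positive and 6 were at least 2-fold. The mitotic genes *Ccnb2* (cyclin B2), *Plk1* (polo-like kinase) and *Birc5* (survivin) went from 3.24 to 19.6 CPM, from 1.57 to 8.30 CPM and from 7.62 to 34.5 CPM. Their folds were 6.06 (5.18 to 7.13), 5.30 (4.21 to 6.73) and 4.53 (4.08 to 5.04). The replication genes *Pcna* (127 and 91.5 CPM), *Mcm3* (34.5 and 29.6 CPM) and *Mcm5* (18.7 and 19.1 CPM) were not past the rule. In controls *Birc5* had 18.8 and 31.9 CPM and *Ccnb2* 7.54 and 17.6 CPM, so that the dpi4 levels of the groups lay closer than the dpi2 levels. Within macrophage-like cells 6 of 16 were higher (median 0.63), and within dendritic cell-like cells 8 of 14 (median 1.57).

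Of the complement and efferocytosis genes, by which macrophages tag and engulf dead cells, more rose than fell in both pairs. In Bach1-cKO 8 of 18 were higher and 2 lower, with a median of 0.96, and in controls 9 were higher and 2 lower, with a median of 0.97. The C1q chains *C1qa*, *C1qb* and *C1qc* were 3.52-fold, 2.99-fold and 3.54-fold higher. *Axl* and *Mfge8*, a receptor and a bridging protein for dying cells, went from 16.8 to 183 CPM (10.9-fold, 10.2 to 11.7) and from 12.5 to 141 CPM (11.3-fold, 10.5 to 12.3). Their control values were 41.9 and 136 CPM and 17.1 and 95.8 CPM, differences of courses of log2 1.75 (1.64 to 1.86) and 1.02 (0.88 to 1.16). *Mertk*, the related receptor, went from 77.3 to 176 CPM with a course within 0.09 of that in controls on the log2 scale. C3 and *C5ar1*, the anaphylatoxin arm, were 5.54-fold and 4.51-fold lower.

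Lipid handling genes were split. Of 20, 6 were higher and 2 lower (median 0.59; 0.05 in controls), and 5 courses lay at least 2-fold above and 2 below the control courses. *Gpnmb* and *Trem2*, markers of lipid-laden macrophages, were 3.09-fold and 2.66-fold higher, *Abcg1*, a cholesterol exporter, 4.34-fold and *Pltp*, the phospholipid transfer protein, 5.57-fold. *Plin2*, which coats lipid droplets, was 2.39-fold lower. *Lpl*, lipoprotein lipase, had 640.0 and 1163 CPM against 777 and 645 CPM in controls, and *Cd36*, a fatty acid receptor, 523 and 484 CPM against 661 and 299 CPM. Cholesterol synthesis genes summed to 426 and 308 CPM in Bach1-cKO and to 523 and 229 CPM in controls. Of these 16 genes only *Sqle* was lower in Bach1-cKO (15.2 to 6.84 CPM), while 10 were lower in controls, and all 16 differences were positive.

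Of the growth factors of repair, more rose than fell in both pairs. Of 14, 8 were higher and 2 lower in Bach1-cKO (median 1.04) and 7 of 15 were higher and 2 lower in controls (0.68). *Igf1*, which supports muscle fibre growth, went from 147 to 590.0 CPM (interval of the fold 3.91 to 4.10), and *Gdf15* from 183 to 553 CPM (3.02-fold, 2.95 to 3.09). In controls they had 98.1 and 340.2 CPM and 171 and 478 CPM. The platelet-derived growth factor genes *Pdgfa*, *Pdgfb* and *Pdgfc* had log2 ratios of 1.52, 2.34 and 1.85. *Areg* (amphiregulin) and *Vegfa* fell, from 28.1 to 6.83 CPM and from 72.4 to 28.7 CPM, and both courses lay at least 2-fold below the control courses. Within macrophage-like cells 6 of 14 were higher and 2 lower (median 0.75).

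Matrix proteases, inhibitors and coagulation factors mostly fell, 10 of 18 lower and 3 higher, with a median of -1.42 (-1.14 in controls). *Thbs1* (thrombospondin-1) went from 1550.3 to 185 CPM, *Fn1* (fibronectin) from 833 to 108 CPM and *Vcan* (versican) from 332 to 12.3 CPM. Their log2 ratios within macrophage-like cells were -2.34, -3.16 and -4.28. The macrophage metalloproteinase genes *Mmp12* and *Mmp13* rose, from 38.2 to 159 CPM and from 6.78 to 36.3 CPM, while the neutrophil gelatinase *Mmp9* fell from 114 to 13.3 CPM. For *Mmp13* the course lay above that in controls (16.4 and 21.6 CPM) by log2 2.02 (1.83 to 2.21).

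The heme, iron and antioxidant genes, which include the known targets of BACH1, showed no common direction. Of 20, 4 were higher and 5 lower, with a median of -0.12 that became 0.07 without the unnamed clusters, and 3 of the courses lay 2-fold below the control course (*Nqo1*, *Slc7a11* and *Cd163*) and none above. Summed, the list had 59328 and 64608 CPM in Bach1-cKO and 29794 and 29961 CPM in controls. *Slc40a1*, the iron exporter ferroportin, went from 81.1 to 666 CPM (8.21-fold, 7.96 to 8.47), and in controls from 6.41 to 66.3 CPM. *Spic*, the factor of iron-recycling macrophages, went from 96.9 to 196 CPM and in controls from 3.51 to 12.5 CPM. Both genes rose in each pair and stood higher in both Bach1-cKO libraries than in either control library.

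*Slc7a11*, the cystine importer, fell from 595 to 99.4 CPM (5.99-fold lower, 5.82 to 6.16) against 100.2 and 63.3 CPM in controls, a difference of log2 -1.92 (-1.98 to -1.85). Within macrophage-like cells it had 131 and 102 CPM, and at dpi2 31.4% of its UMIs lay in the unnamed clusters. *Cd163*, the haemoglobin scavenger receptor, fell from 43.3 to 8.78 CPM, and from 71.1 to 9.24 CPM within macrophage-like cells. *Gsr*, *Srxn1* and *Nqo1*, enzymes of antioxidant defence, were 4.25-fold, 2.15-fold and 3.86-fold lower. *Blvra*, *Blvrb* and *Ftl1*, for bilirubin formation and ferritin, had log2 ratios of 0.28, 0.57 and 0.06.

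Glycolysis and hypoxia genes were lower in 8 of 20 cases and higher in none, with a median of -0.47 (-0.32, with 2 lower, in controls; -0.73 in Bach1-cKO with the mean of per-cell CPM). *Pgk1*, a glycolytic kinase, went from 31.2 to 9.60 CPM, *Slc16a3*, the lactate exporter, from 113 to 20.6 CPM and *Hif1a* from 330.1 to 133 CPM. In controls *Pgk1* had 18.2 and 18.3 CPM. None of 20 oxidative phosphorylation genes was past the rule in either direction (5236 and 5076 CPM in sum). Of 21 lysosomal genes 3 were higher and 1 lower (median 0.56; 0.37 in controls), and *Hexa*, which encodes a chain of hexosaminidase, was 2.60-fold higher. Over all genes measured 16.2% were higher and 4.90% lower, so that these counts do not set the lysosomal list apart. Of 14 measured ATF4 stress genes 1 was higher (*Phgdh*, 0.676 to 3.42 CPM) and 2 were lower (*Chac1*, 2.15 to 0.205 CPM, and *Nupr1*, 41.3 to 19.4 CPM).

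Of 22 transcription factors of monocytes and macrophages, 1 was higher and 3 were lower, and no course differed by 2-fold from that in controls. *Irf8* went from 132 to 326 CPM, *Cebpb* from 1766 to 631 CPM, *Nr4a1* from 638 to 266 CPM and *Klf2* from 173 to 76.1 CPM. The median of 0.04 became -0.10 under TMM or median-of-ratios scaling.

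Genes of alternative activation and resident-like macrophages did not move together, 7 of 14 lower and 2 higher. *Chil3*, a chitinase-like protein, went from 889 to 60.3 CPM and *Lyve1*, the hyaluronan receptor, from 13.2 to 1.15 CPM. *Sepp1*, the selenium carrier, went from 717 to 3052 CPM (4.26-fold, 4.21 to 4.30) and in controls from 442 to 3943 CPM. *Socs3*, an inhibitor of cytokine signalling, had 137 and 76.9 CPM against 73.6 and 152 CPM in controls. The shares of the classes alone gave a median of 0.37 for this list, against -0.92 as measured, -0.43 with the mean of per-cell CPM and -1.18 within macrophage-like cells.

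**Figure D5:**
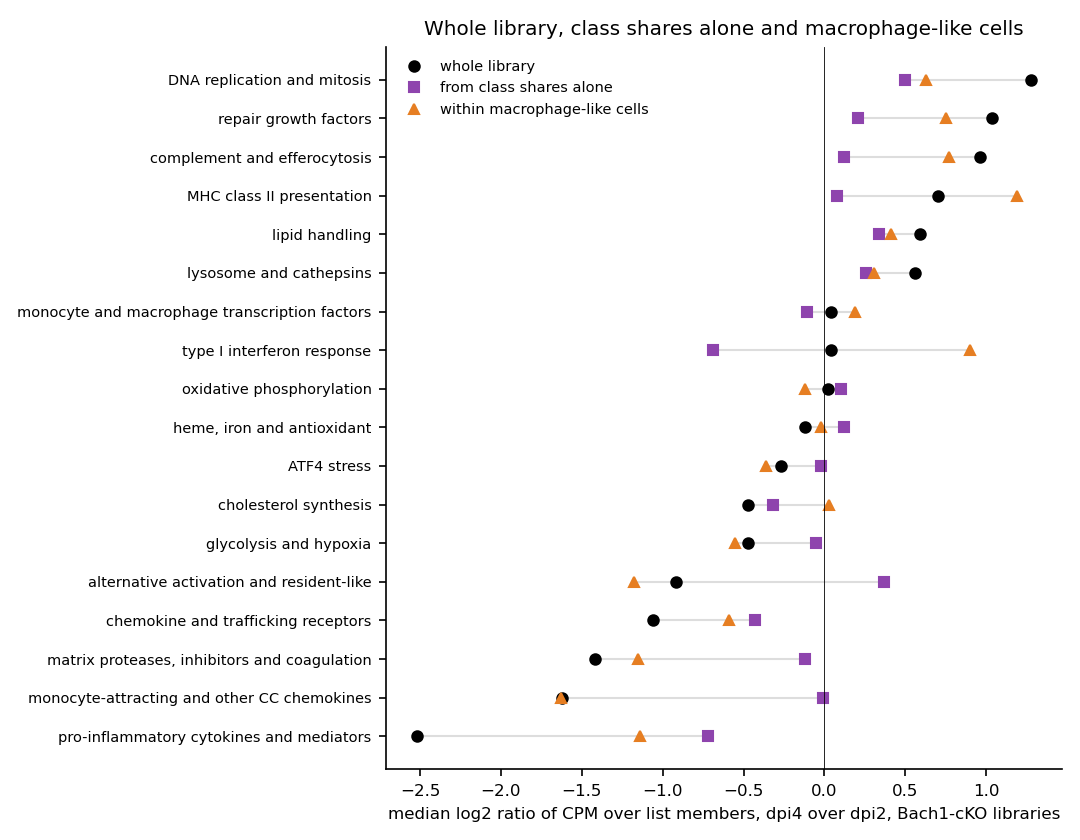
For each gene list, the median log2 ratio of the Bach1-cKO libraries, dpi4 over dpi2, as measured, as given by the UMI shares of the cell classes alone with class levels held at dpi2, and within macrophage-like cells. For the shares, the unnamed clusters were pooled in a remainder, so that changes among them are not counted. For the interferon list the 3 medians were 0.04, -0.69 and 0.90.

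Among genes with the widest difference of courses from controls, chosen by rank, those above the control course included the interferon-inducible genes *Iigp1* (1.87 to 45.1 CPM; 8.48 to 22.9 CPM in controls), *Ifi44* and *Cxcl9* (0.961 to 22.5 CPM; 5.58 to 20.4 CPM). *Hspa1b*, a heat shock protein, had 20.6 and 36.7 CPM against 59.2 and 13.2 CPM, and *Gzma*, a granule protease of cytotoxic cells, 14.8 and 51.0 CPM against 30.7 and 20.2 CPM. T or NK cell-like cells held 99.1% of the *Gzma* UMIs at dpi4, and the T or NK cell markers summed to 172 and 261 CPM in Bach1-cKO and to 260.2 and 195 CPM in controls. *Ly6c2*, the marker of inflammatory monocytes, was 3.32-fold lower in Bach1-cKO (285 to 85.7 CPM) and 16.2-fold lower in controls (868 to 53.4 CPM). *Hmga2*, a chromatin protein, had 3.68 and 3.66 CPM against 22.0 and 3.59 CPM. *AC125149.3*, on an unplaced scaffold, had 2.76 and 3.66 CPM against 3.41 and 0.589 CPM.

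The genes with the widest differences below the control course were led by *Slc15a2*, a peptide transporter, with 23.2 and 1.76 CPM against 9.77 and 28.1 CPM in controls, a difference of log2 -5.24 (-5.55 to -4.93). It was lower within macrophage-like (13.3 to 1.84 CPM), monocyte-like (38.3 to 1.98 CPM) and dendritic cell-like cells (35.6 to 2.35 CPM). *Acta2*, the smooth muscle actin, had 51.9 and 29.3 CPM against 3.83 and 34.0 CPM, and at dpi2 50.3% of its UMIs lay in neutrophil-like cells. *Il12b*, the p40 cytokine subunit, had 2.67 and 5.80 CPM against 0.0898 and 5.95 CPM, with 97.3% of its dpi4 UMIs in dendritic cell-like cells. *Mt3* and *Myl4* had 5.30 and 9.41 CPM and 0.908 and 4.60 CPM against 0.192 and 7.67 CPM and 0.128 and 10.8 CPM. For *Mt3*, the log2 ratio of 0.83 became -0.01 with a mitochondrial limit of 5%. That of *Myl4* went from 2.34 to 0.61, and that of *Acta2* from -0.83 to -2.85, with the mean of per-cell CPM. *S100a9*, *S100a8* and *Il1f9* were the other genes of this rank.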

How the data were processed

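The authors deposited 1 count matrix per library: whole UMI counts of 27998 genes per barcode, not normalized. Per the submitters' processing notes and the study's methods they were made with Cell Ranger 6.1.2 against mm10. The smallest barcode totals were 500 and 501 UMIs. The labels name the 3′ v2 kit; the study's methods state another version. Barcodes with at least 500 genes and under 10% mitochondrial UMIs were kept (56181953 to 77978276 UMIs per library), summed and scaled to CPM. With 1 library per group no test was run; CPM have exact Poisson, ratios exact conditional binomial and shares exact binomial 95% intervals. Differences of courses have an interval on the log scale from the 4 counts, with 0.5 added to each. A gene was called at 2-fold or more, an interval without 1 and at least 50 UMIs in the pair.

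The named genes were *Bach1*, *Lyz2*, *Lyz1* and *Hmox1*; the 12 highest and 12 lowest ratios of called genes with at least 500 UMIs, ranked by the interval bound nearest 0; the 6 largest rises and falls in CPM; the 8 widest differences of courses each way (at least 200 UMIs per pair); and all members of the 18 lists. Mitochondrial genes, sex-chromosome marker genes and genes with Gm or Rik names were left out of the ranks. The members, lists and markers were chosen with earlier results of these data known, so the lists are no independent evidence.

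Cells were clustered with scanpy 1.11.5 and leidenalg 0.10.2 (2000 variable genes without list and named genes, 30 components, 15 neighbours, resolution 1.0; 22 clusters). A cluster was named from 89 markers where 3 or more of a class had a UMI in 10% or more of its cells and its 10 leading genes did not hold more markers of another class. Shallow clusters with no own marker among those stayed unnamed. That a cluster's class was sought only among classes with 3 detected markers was decided after the clusters were seen. The study removed doublets with scDblFinder; here none were removed in the values reported, and removal of the highest Scrublet scores was an alternative. The scripts were tested on simulated data. TMM used edgeR 4.0.16. Gene positions are from GENCODE M21 (GRCm38) and promoters from RefSeq. Other alternatives were other filters, minimums, folds and totals. Values of a few genes are not reported here.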

Additional observations from a re-analysis of the deposited data

Results flagged for a closer look

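For the 8 genes given here the Bach1-cKO pair and the control pair were called in opposite directions. Each group was 1 library, so the difference was not tested, and the genes were picked out after their values were seen, from 12702 genes measured in both pairs. Higher at dpi4 in Bach1-cKO and lower in controls were *Apol9b*, an interferon-inducible apolipoprotein L gene, with log2 ratios of 2.18 and -1.20, *Chic1* with 1.92 and -1.12, and *Pou3f1*, a transcription factor, with 1.13 and -1.25. Lower in Bach1-cKO and higher in controls were *Slc15a2* (-3.72 and 1.52), the histone gene *Hist2h2aa1* (-2.26 and 1.03), *Dynlt1b*, a dynein light chain gene (-1.72 and 1.57), the metalloreductase gene *Steap4* (-1.23 and 1.37) and *Gm10851* (-1.07 and 1.31). *Hist2h2aa1* and *Dynlt1b* have near-identical copies in the genome, so that reads may be split between copies and these values are uncertain.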

How the results depend on the processing

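No paired analysis was possible because each group was 1 library. Of 12779 genes, 2071 were higher and 626 lower in Bach1-cKO. With at least 200 UMIs 1152 were higher; at 1.5-fold 3365 were higher and 1397 lower, and at 3-fold 1151 and 291. The courses above control (519) numbered 909 with the mean of per-cell CPM, 324 with at least 200 UMIs, 1055 at 1.5-fold and 158 at 3-fold. Those below (446) numbered 703, 238, 923 and 193, and 737 with no minimum of UMIs. Every other setting kept these counts within 1.5 times, among them TMM, size factors, other cell filters and removal of likely doublets (115 and 100 Bach1-cKO cells). Leaving out the unnamed clusters, chosen after seeing the data, was run for the higher and lower counts only (1638 and 615). The higher and lower counts within macrophage-like cells (1062 and 558) stayed within that range in each setting run. The median log2 ratio of all genes, 0.11 as reported, was -0.03 with TMM and size factors and 0.28 with the per-cell mean. The higher share of called genes ranged from 69.6% to 79.8% (76.8% as reported). Of 548 values of genes under other settings 187 moved and 1 called value changed sign and lost its call. These cover the 50 genes named by rank or as label checks, and that 1 value of a list member. It was *Cd209f*, log2 -1.92 as reported and 0.99, under 2-fold, with a mitochondrial limit of 5%. Other list members are neither in this tally nor among the ratios listed next. *Il12b* (1.12) was at 0.98 under TMM and size factors and *Myl4* (2.34) at 0.61 with the per-cell mean, both under 2-fold, and *Acta2* (-0.83) was at -1.91 without the unnamed clusters. *Acta2* (-2.85), *Hspa1b* (1.62), *Mt3* (1.59) and *Ctsd* (1.07) were past 2-fold, and *Psap* close to it, with the per-cell mean. Besides ratios given above, those that moved by over 1.5 times and stayed past 2-fold were, with the per-cell mean, *S100a9* (-5.47), *Wfdc21* (-5.96), *Stfa2l1* (-5.98), *Ppbp* (-4.29), *Cxcl2* (-3.94), *Ly6c2* (-1.14), *Apoe* (2.67), *Il12b* (2.81), *Ifi44* (4.36), *Iigp1* (5.38), *Col1a1* (4.63), *Dcn* (5.18), *Col8a1* (6.27) and *Mgp* (8.58), and that of *Col1a2* moved too. With at least 1000 genes they were *S100a9* (-6.98), *Wfdc21* (-8.23) and *Stfa2l1* (-7.31), and with a mitochondrial limit of 5% *Wfdc21* (-6.22), *Gzma* (2.45), *Capn6* (5.25), *C1qtnf3* (5.95), *Peg3* (6.45), *Mgp* (7.21), *Col1a1* (7.57), *Col8a1* (7.75), *Col1a2* (7.92), *Col3a1* (8.74) and *H19* (9.41). Without the unnamed clusters *Irg1* was at -5.04, *Cilp* at 2.25, *C1qtnf3* at 3.47, *Capn6* at 4.41 and *Myl4* at 4.52. Of 198 list medians 70 moved, the most that of the CC chemokines, from -1.62 to -0.85 with the per-cell mean. The medians that changed sign were those of the interferon, transcription factor, oxidative phosphorylation and heme lists, all within 0.12 of 0. The ratios of *Fth1*, *Lyz2*, *Lyz1*, *Hmga2* and *Mt3*, none of them called, also changed sign in some settings. Counts below the 50 UMI minimum limit what can be said of rare transcripts, and no spread between animals was measured.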

Other observations

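Transcripts of 1 class were found at unequal levels in the other classes at the 2 times. *S100a8*, a neutrophil gene, had 174 CPM in macrophage-like, 577 CPM in monocyte-like and 230.3 CPM in dendritic cell-like cells at dpi2, and 15.4, 0 and 1.71 CPM at dpi4. In the same classes its neighbour *S100a9* had 115, 446 and 155 CPM at dpi2 and 2.10, 0 and 0.428 CPM at dpi4. *Slc7a11* had 273 CPM in T or NK cell-like cells at dpi2 and 4.79 CPM at dpi4, with 3815 and 2450.1 CPM in neutrophil-like cells.

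*Ccl5* lay lower in T or NK cell-like cells at dpi4 than at dpi2 (3901 and 2791 CPM) although its whole-library level was 2.84-fold higher. In dendritic cell-like cells it went from 326 to 903 CPM. Within dendritic cell-like cells *Hspa1b* went from 11.4 to 70.8 CPM, and within macrophage-like cells it had 24.5 and 31.8 CPM.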
